A study of Mus musculus with 2 samples.

Results

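The genes described here are *Trp53*, which encodes the transcription factor p53, and 9 genes that p53 activates: *Cdkn1a*, *Mdm2*, *Ccng1*, *Sesn1*, *Zmat3*, *Phlda3*, *Trp53inp1*, *Eda2r* and *Perp*. They were chosen by name, with earlier results of these data known. They are 10 of the 20651 genes that could be named on the array, and are read by 13 probes. All probes were taken whose RefSeq accession matches one of these symbols. Gene expression was measured by microarray in RAW264.7 cells, an established macrophage line from an ascites tumor that Abelson murine leukemia virus induced in a male adult BALB/c mouse. A single culture received vehicle control and another received IR-61, a heptamethine cyanine dye that targets mitochondria, and both were harvested after 24 h. Each culture gave 1 single-color Agilent array, and both arrays were read in the same scan. With 1 array per condition there is no spread between cultures and no test between the conditions, so a difference is set beside the spread between spots of the same probe, which covers noise within an array only. An effect of IR-61 and a difference between these cultures cannot be told apart, and neither can a change in all cells and a change in some of them.

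p53 is a tumor suppressor that binds DNA as a tetramer and switches on genes of cell cycle arrest, DNA repair, metabolism and apoptosis after DNA damage and other stress. Its amount is set mainly by the stability of the protein, because the ubiquitin ligase Mdm2 marks it for degradation, and *Mdm2* is itself a p53 target, which closes a negative feedback loop. The mRNA of *Trp53* is therefore a poor guide to p53 activity, and the mRNAs of several targets are usually read together. Many of these targets also answer to other transcription factors, *Cdkn1a* in particular.

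The array as a whole was brighter with IR-61. The 75th percentile of the processed signal, in the scanner's intensity units, was 1263 with vehicle and 1772 with IR-61, and each log2 signal was reduced by that of its array ("scaled log2 signal"). A log2 difference is IR-61 minus vehicle on this scale. Well above background were 77.6% of the 39419 probes in the vehicle culture and 81.2% in the IR-61 culture. Over the 16882 genes measured well above background on both arrays, the log2 difference had a median of 0.10. Of these genes 336 were at least 2-fold higher with IR-61 and 235 at least 2-fold lower, and this split depends on the scaling, with 2156 and 72 when no scaling was applied and 249 and 295 when the arrays were scaled by their medians. The 9 macrophage markers that could be named, among them *Csf1r* and *Adgre1*, were all well above background on both arrays, as were 11 of 13 markers of T cells, B cells, fibroblasts and epithelial cells. On the scaled signal the macrophage markers went both ways, with log2 differences from −0.98 for *Cd14* to 1.03 for *Adgre1*. The summed signal of the macrophage markers was 203253 with vehicle and 378636 with IR-61, and that of the other markers 45769 and 86363. These sums are of signals before scaling and rest on a few bright probes, since the median signal was 7227 and 7803 for the macrophage markers and 188.6 and 180.1 for the others. The brightest of the other markers were the fibroblast markers *Col1a1*, with signals of 27148 and 58670, and *Col1a2*, with 15029 and 22576. The log2 differences of *Col1a1* and *Col1a2* were 0.62 and 0.10. The B cell marker *Ms4a1* had the lowest log2 difference of the other markers, at −1.46. Of the 3 epithelial markers, *Krt8* was well above background on both arrays, with signals of 25.99 and 27.36, and *Epcam* and *Cdh1* on neither. The part of such signals in the differences below was not tested.

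Of the 10 genes, 9 were measured on both arrays, and they did not move as a block. *Phlda3*, *Sesn1* and *Zmat3* were higher with IR-61, with log2 differences of 1.10, 0.89 and 0.82. *Cdkn1a* was lower by almost the same amount, with a log2 difference of −0.98. *Mdm2* stood slightly above the median of all genes, and *Trp53*, *Perp*, *Trp53inp1* and *Ccng1* lay within 0.10 of it on the log2 scale. *Eda2r* was not well above background on either array. *Phlda3* alone passed the 2-fold limit upward, a limit that 1.99% of all measured genes passed, and no member passed it downward, as 1.39% of all genes did. At 1.5-fold, 3 of the 9 genes were higher and 1 was lower, against 9.79% and 5.69% of all measured genes. The comparisons with all genes are descriptions only, since the members were chosen with earlier results known. The median log2 difference of the 9 genes was 0.13, and their differences ranged over 2.08 with an SD of 0.62 between genes, against an SD of 0.44 across all measured genes. In the order of their differences, only 2 of the 8 neighboring gaps were more than 2 times their SD, as estimated from repeated spots, that of 0.98 between *Cdkn1a* and *Ccng1* and that of 0.52 between *Mdm2* and *Zmat3*. Genes that are not neighbors in this order were not compared.

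**Figure D1:**
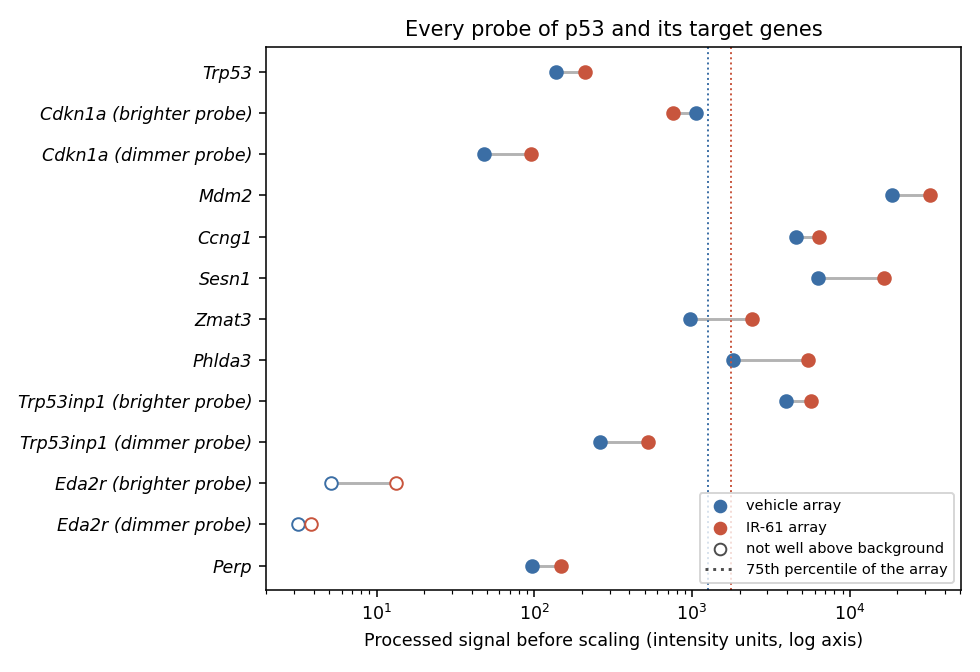
Processed signal before scaling (x axis, intensity units, log scale) of each of the 13 probes of *Trp53* and its target genes, with vehicle (blue) and with IR-61 (red). Open circles are not well above background and dotted lines mark the 75th percentile of each array; signals of different probes are not comparable with each other. The brighter *Cdkn1a* probe is the one probe whose signal was lower with IR-61, at 758 against 1064.

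*Trp53* itself was read by 1 probe, with a processed signal of 137 in the vehicle culture and 210 in the IR-61 culture. Most of that gap is the overall brightness of the second array, since the scaled log2 signals were −3.20 and −3.08 and the log2 difference was 0.13. The spot SD, which is the SD of a difference estimated from repeated spots of probes in the same broad class of signal, was 0.229, so no difference could be resolved. *Mdm2*, the ligase that removes p53, had a signal of 18544 with vehicle and 32023 with IR-61. Its log2 difference was 0.30, equal to a 1.23-fold higher signal and 3.18 times the spot SD of 0.094, but 28.2% of all measured genes were as high or higher. *Ccng1*, which encodes cyclin G1, a p53 target that acts back on Mdm2 through the phosphatase PP2A, had signals of 4544 and 6399. Relative to the array it was the same in both cultures, with scaled log2 signals of 1.85 and 1.85 and a log2 difference of 0.01.

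*Cdkn1a* encodes p21, the inhibitor of cyclin-dependent kinases through which p53 stops the cell cycle. Its brighter probe was printed 10 times on each array and was the only probe of these genes with repeated spots. The 10 spots of the vehicle array ranged from 999 to 1166 with a median of 1052, and the 9 spots used of the IR-61 array ranged from 708 to 794 with a median of 758. No IR-61 spot reached the dimmest vehicle spot, even before the brighter second array was scaled down. On the scaled log2 signal, the mean ± SD between spots was −0.25 ± 0.07 with vehicle (10 spots) and −1.23 ± 0.05 with IR-61 (9 spots). The log2 difference of −0.98, a 1.97-fold lower signal, was 18.5 times the expected spot SD of 0.053. Of all measured genes, 1.47% were as low or lower, and of the 2996 genes within 1 log2 unit of its signal 2.27% were.

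**Figure D2:**
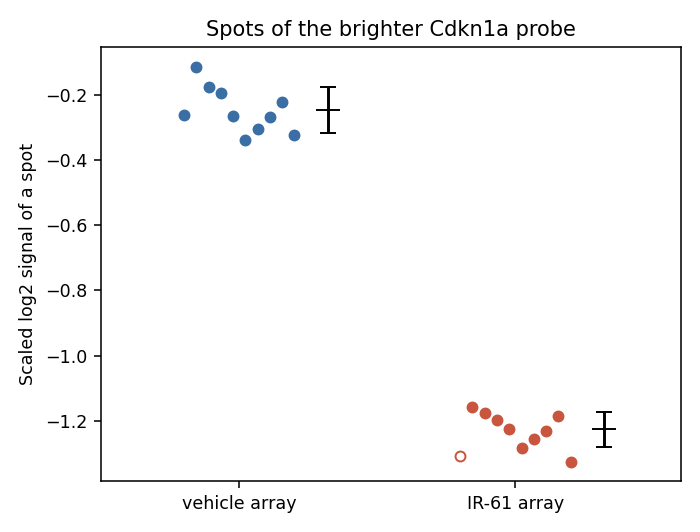
Scaled log2 signal (y axis) of the 10 spots of the brighter *Cdkn1a* probe on each array, with vehicle in blue and IR-61 in red. The open circle is a spot flagged as an outlier by the scanner software and left out, bars give the mean ± SD of the spots used, and the 2 sets of spots do not overlap.

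The second *Cdkn1a* probe did not show this difference. It matches another RefSeq transcript of the gene (NM_001111099, against NM_007669 for the brighter probe), and it was dim, with a signal of 47.9 with vehicle and 95.5 with IR-61. Its log2 difference was 0.51, which is 1.35 times its expected spot SD of 0.376. The probes of *Cdkn1a* thus disagreed in sign, and the mean of both gave a log2 difference of −0.24. Whether the transcripts they read differed was not tested.

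*Sesn1*, *Zmat3* and *Phlda3* were the members that stood higher with IR-61. *Sesn1* encodes sestrin 1, which restrains the kinase complex mTORC1 and limits oxidative damage. Its signal was 6308 with vehicle and 16391 with IR-61, and the log2 difference of 0.89, a 1.85-fold higher signal, was 9.42 times the spot SD. *Zmat3* encodes a zinc finger protein that binds RNA and acts on splicing and mRNA stability. Its signal was 971 with vehicle and 2398 with IR-61, with a log2 difference of 0.82, a 1.76-fold higher signal and 4.33 times the spot SD of 0.188. *Phlda3* encodes a small pleckstrin homology protein that competes with the kinase Akt for membrane lipids and so restrains it. Its signal was 1808 with vehicle and 5436 with IR-61, the largest relative gap among the 9 measured genes. The log2 difference was 1.10, a 2.14-fold higher signal and 11.7 times the spot SD of 0.094. As high or higher were 3.01% of all measured genes for *Sesn1*, 3.95% for *Zmat3* and 1.39% for *Phlda3*. Among genes within 1 log2 unit of the same signal, these shares were 1.99%, 3.33% and 0.738%. Each of the 3 genes was read by 1 probe and 1 spot per array, so none has a second reading.

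**Figure D3:**
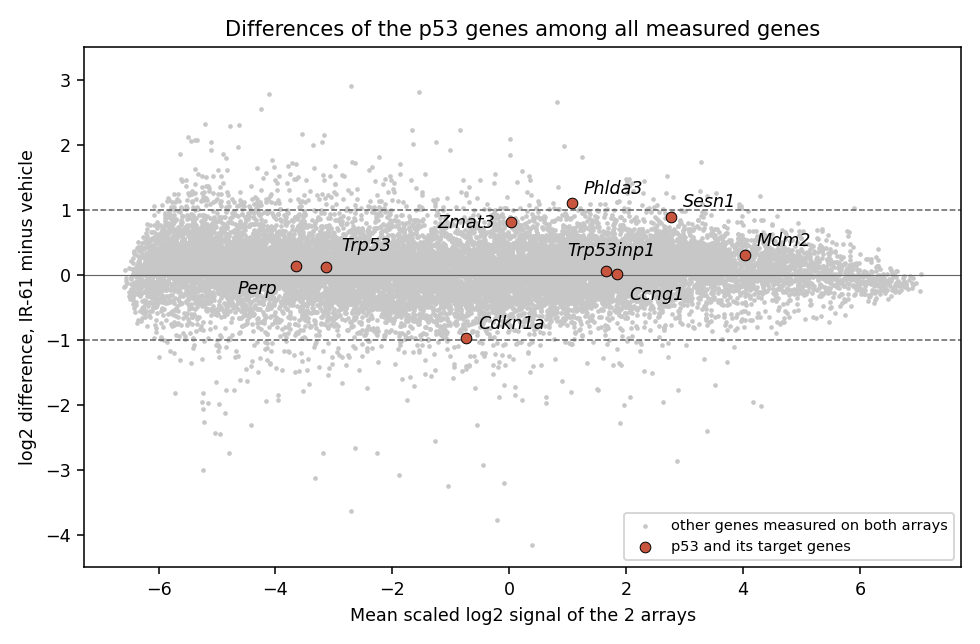
Log2 difference, IR-61 minus vehicle (y axis), against the mean scaled log2 signal of both arrays (x axis) for the 16882 genes measured on both arrays (gray) and the 9 measured p53 genes (red), each by its brightest probe. Dashed lines mark the 2-fold limit. *Phlda3* lies just above the upper line at 1.10, *Sesn1* and *Zmat3* just under it, and *Cdkn1a* at the lower line at −0.98.

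The remaining members are effectors of cell death and autophagy. *Trp53inp1*, which encodes a stress protein of the nucleus and of autophagosomes, had 2 probes for the same transcript. The brighter one read 3914 with vehicle and 5707 with IR-61, with a log2 difference of 0.06, within the spot SD of 0.094. The dimmer one read 259.6 and 525, with a log2 difference of 0.53, which is 2.30 times its spot SD of 0.229. The gene therefore has no single value, although neither probe was lower with IR-61. *Perp*, which encodes a membrane protein of desmosomes that also acts in p53-dependent apoptosis, had signals of 96.2 and 148 and a log2 difference of 0.13, within its spot SD of 0.229. *Eda2r*, which encodes a receptor of the TNF receptor superfamily for the ectodysplasin isoform EDA-A2, had signals of 5.16 with vehicle and 13.3 with IR-61 on one probe and 3.16 and 3.84 on the other. The lowest signals well above background were 12.8 (vehicle) and 15.0 (IR-61), so neither probe gives a fold.

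p53 recognizes a pair of half-sites of 10 bases each, and promoter windows of 300 bases (250 before the transcription start and 50 from it on, RefSeq, GRCm38.p6) were searched for the p53 half-site consensus. The half-site reads the same on both strands, so both strands are covered. A full site was taken as 2 half-sites with a spacer of 0 to 13 bases, at most 2 mismatches in all and the C and G of each half-site core CNNG intact. Matches may overlap and share a half-site. The table holds 9 windows for 7 of the members, and *Zmat3*, *Trp53inp1* and *Perp* are not in it. A full match was found in 3 of the 9 windows, those of *Ccng1* and of one start each of *Cdkn1a* and *Sesn1*, and in 4.09% of all 32851 windows. An exact half-site was found in 5 of the 9, with *Trp53* and *Mdm2* added, and in 8.36% of all windows. The windows below are shown because they hold these full matches, with the second start of *Cdkn1a* and that of *Phlda3*, the highest member, for comparison. Capitals mark the half-sites of full matches and exact half-sites.
Cdkn1a upstream start (chr17:29090729-29091028, + strand): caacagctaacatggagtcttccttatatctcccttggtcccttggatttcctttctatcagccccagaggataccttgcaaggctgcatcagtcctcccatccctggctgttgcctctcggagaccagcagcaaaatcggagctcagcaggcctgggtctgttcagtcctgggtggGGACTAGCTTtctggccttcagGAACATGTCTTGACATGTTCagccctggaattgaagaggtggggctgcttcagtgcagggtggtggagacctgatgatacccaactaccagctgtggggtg
Cdkn1a downstream start (chr17:29093519-29093818, + strand): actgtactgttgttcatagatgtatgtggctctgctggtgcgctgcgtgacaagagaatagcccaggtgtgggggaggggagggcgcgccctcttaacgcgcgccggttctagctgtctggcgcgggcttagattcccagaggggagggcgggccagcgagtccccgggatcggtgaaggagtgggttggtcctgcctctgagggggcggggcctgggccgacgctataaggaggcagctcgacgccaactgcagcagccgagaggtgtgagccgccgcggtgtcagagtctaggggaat
Ccng1 (chr11:40755237-40755536, - strand): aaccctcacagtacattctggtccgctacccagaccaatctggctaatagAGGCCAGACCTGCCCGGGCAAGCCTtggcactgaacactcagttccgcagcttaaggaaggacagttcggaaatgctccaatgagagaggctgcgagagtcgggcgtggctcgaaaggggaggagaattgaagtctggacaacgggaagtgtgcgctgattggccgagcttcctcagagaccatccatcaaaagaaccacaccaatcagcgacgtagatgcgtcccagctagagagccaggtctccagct
Sesn1 downstream start (chr10:41887189-41887488, + strand): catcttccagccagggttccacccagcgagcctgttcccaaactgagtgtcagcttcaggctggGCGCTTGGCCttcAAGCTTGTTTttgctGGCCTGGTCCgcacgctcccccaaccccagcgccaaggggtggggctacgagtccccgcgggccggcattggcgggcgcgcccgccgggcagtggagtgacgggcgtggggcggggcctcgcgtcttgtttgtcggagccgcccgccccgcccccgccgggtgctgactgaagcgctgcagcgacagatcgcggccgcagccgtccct
Phlda3 (chr1:135765835-135766134, + strand): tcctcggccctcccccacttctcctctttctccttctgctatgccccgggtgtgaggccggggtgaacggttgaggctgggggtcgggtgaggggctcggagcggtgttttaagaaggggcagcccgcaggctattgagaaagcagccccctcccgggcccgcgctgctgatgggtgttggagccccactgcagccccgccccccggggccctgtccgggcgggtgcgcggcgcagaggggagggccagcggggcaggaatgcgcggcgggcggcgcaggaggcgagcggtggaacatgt

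In *Cdkn1a* the matches lie before the upstream start, which is 2790 bases from the downstream one. The closer pair of half-sites, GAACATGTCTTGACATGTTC, has no spacer and 1 mismatch and lies 51 to 32 bases before that start. The table does not tie a start to a transcript, so neither window can be assigned to the probe that was lower or to the probe that was not. In *Ccng1* the pair AGACCTGCCCGGGCAAGCCT, with no spacer and 1 mismatch, lies 195 to 176 bases before the start. In *Sesn1* the matches have 2 mismatches and spacers of 3 and 5 bases. The 3 genes with a full match had log2 differences of −0.98, 0.01 and 0.89 on their brightest probes, and the second *Cdkn1a* probe had 0.51. The *Sesn1* probe is likewise not assigned to either of its starts. *Phlda3*, at 1.10, has no complete match in its window. However, that window ends in GAACATGT, which fits the start of a half-site that the window edge cuts off. Whether a match goes with a direction was not tested. The search covers these letters in these windows only.

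Other genes of the pathway were read from 6 lists, which were also chosen with earlier results of these data known. The first holds 23 further p53 targets of arrest, repair and metabolism, all measured on both arrays. Their median log2 difference was −0.02, against 0.10 over all genes, with 11 above 0 and 12 below, whereas 61.2% of all measured genes were above 0. The median turned positive, at 0.06, with the mean over the probes of a gene, and was 0.46 without scaling. The genes of this list past the 2-fold limit, which *Cdkn1a* did not reach, are the following. *Plk2*, a polo-like kinase, was higher, with signals of 9493 and 31890 and a log2 difference of 1.26. *Btg2*, an antiproliferative early response gene, was lower, with signals of 1784 and 984 and a log2 difference of −1.35. *Plk3*, another polo-like kinase, had signals of 963 and 566 and a log2 difference of −1.26. *Tap1*, a peptide transporter of antigen processing, had signals of 211 and 144 and a log2 difference of −1.04. Past the 2-fold limit were thus 1 of 23 upward and 3 of 23 downward, against 1.99% and 1.39% of all measured genes, and none of the downward ones passed it without scaling. *Sesn2*, the paralog of *Sesn1*, had a log2 difference of 0.65.

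All 16 targets of apoptosis were measured on both arrays. On the scaled signal 12 of them had a negative log2 difference and 4 a positive one, whereas 61.2% of all measured genes were above 0. Their median was −0.17, none passed the 2-fold limit and 2 were lower by 1.5-fold or more, as 5.69% of all genes were. Several of the negative values, that of *Bax* among them, lay within the spread between spots. Without scaling the median was 0.32, so the negative sign holds relative to the array only. The lowest was *Fas*, the death receptor, with signals of 4454 and 3392 and a log2 difference of −0.88, 9.34 times its spot SD. The highest was *Pmaip1*, which encodes the BH3-only protein Noxa, at 0.45, 4.79 times its spot SD. *Bax* and *Bbc3*, the pore-forming effector and the BH3-only protein Puma, had log2 differences of −0.07 and −0.24. These were 0.72 and 2.56 times the spot SD.

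Among 23 regulators that act on p53, the median was 0.07, 14 were above 0 against 61.2% of all measured genes, and none passed the 2-fold limit. The lowest was *Hipk2*, a kinase that phosphorylates p53, with log2 differences of −0.91 and −0.54 on its 2 probes. The highest was *Chek1*, the checkpoint kinase, at 0.71. Of the 14 relatives of the members, which include the other p53 family genes and the other CDK inhibitors, 12 were measured, with a median of 0.16 and 8 above 0. None was 2-fold higher and 1 was 2-fold lower, against 1.99% and 1.39% of all genes. *Phlda1*, of the same family as *Phlda3*, passed the limit downward, with signals of 1277 and 757 and a log2 difference of −1.24. *Eda*, the ligand gene for *Eda2r*, was the highest, at 0.75 on its brighter probe and 0.14 on the other.

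Partners of p21 and genes repressed through it were read from the last 2 lists. The 16 partners through which p21 acts in the cell cycle, among them CDKs, cyclins and pocket proteins, had a median of 0.16 and 12 above 0, against 61.2% of all measured genes, and none passed the 2-fold limit, with *Ccnd2* the lowest at −0.12 and *Ccne2*, a cyclin E, the highest at 0.94. The 26 genes that p53 represses through p21 are mostly genes of mitosis and DNA replication. Of the 24 measured, 21 had a positive log2 difference and 3 a negative one, with a median of 0.41 against 0.10 over all genes, of which 61.2% were above 0. None of the 24 passed the 2-fold limit, and 8 were higher by 1.5-fold or more, as 9.79% of all measured genes were. *Ect2*, an exchange factor of cytokinesis, was the highest at 0.89, and *Top2a*, the DNA topoisomerase of dividing cells, the lowest at −0.49. The probes of some of these genes disagreed. For *Birc5* the differences were 0.74 on the brightest probe and 0.07 and −0.002 on the others, and for *Ccnb1* they were 0.73, −0.26 and 0.09. For *Cdk1* they were 0.61 and 0.60, while its dimmest probe fell short of the background limit in the IR-61 culture and gave a bound of at least 4.93-fold lower. With the mean over the detected probes of each gene the median of the list was 0.36.

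**Figure D4:**
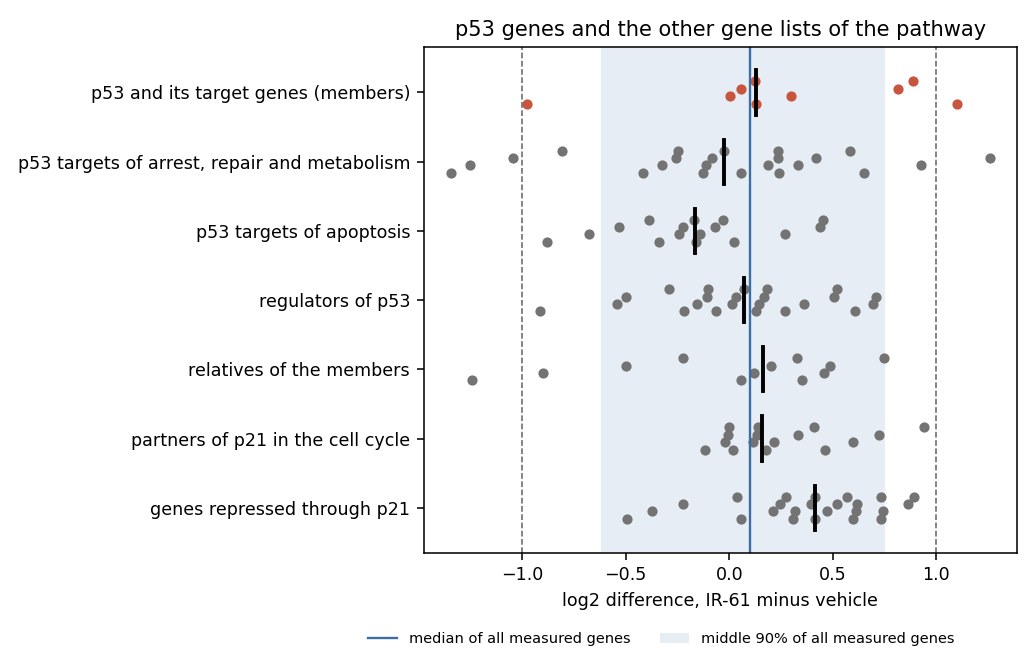
Log2 difference, IR-61 minus vehicle (x axis), of every gene measured on both arrays in p53 and its target genes (red) and in the 6 other lists (gray), each by its brightest probe. Black bars are list medians, the blue line is the median of all measured genes, the band is the middle 90% of them, from −0.62 to 0.75, and dashed lines mark the 2-fold limit; the genes repressed through p21 sit furthest to the right as a list, with a median of 0.41.

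The direction of the 4 outer members did not depend on the scaling. Under 12 settings *Phlda3* lay between 1.02 and 1.59, *Sesn1* between 0.80 and 1.38 and *Zmat3* between 0.72 and 1.30. *Cdkn1a* lay between −1.06 and −0.24, with the value closest to 0 from the mean of its 2 probes. The upper ends come from leaving out the scaling, which moved the median of all genes from 0.10 to 0.59. Taken from the median of all genes under the same setting, *Phlda3* stayed between 0.9996 and 1.06, *Sesn1* between 0.76 and 0.95 and *Zmat3* between 0.72 and 0.76. *Mdm2* and *Trp53* were above 0 under all 12 settings, *Perp* under 11, *Trp53inp1* under 9 and *Ccng1* under 7, so the sign of the last 3 rests on the setting. All settings re-read the same spots, and some left a gene's value unchanged, so these counts do not measure certainty. *Trp53* stood only 0.02 to 0.06 above the median of all genes under the same setting. Its reported difference was 0.55 times its spot SD, so its sign was not resolved.

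**Figure D5:**
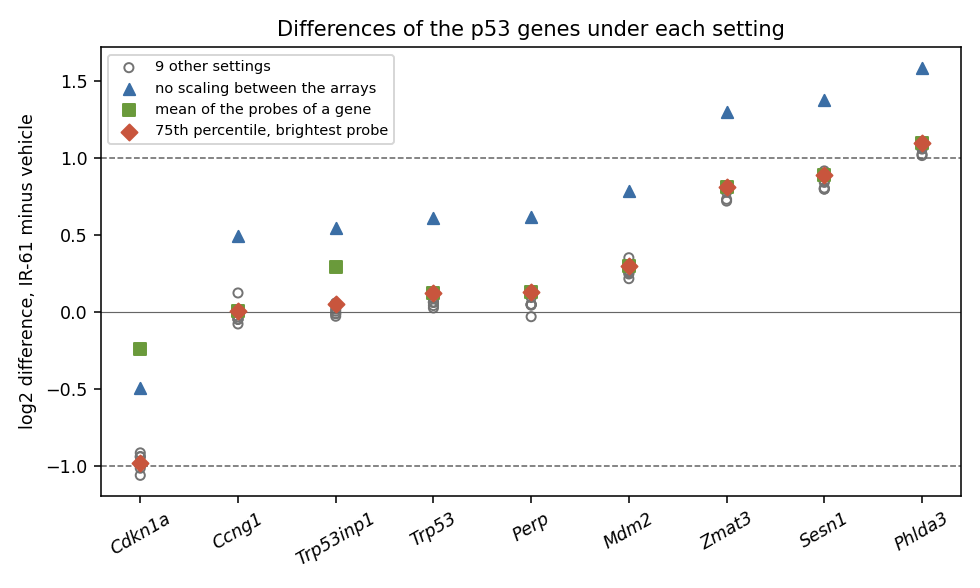
Log2 difference, IR-61 minus vehicle (y axis), of the 9 measured p53 genes (x axis, in the order of their differences) under 12 settings. Red diamonds are the values reported, blue triangles those without scaling between the arrays, green squares the mean over the probes of a gene and open circles the 9 other settings; *Cdkn1a* is below 0 and *Zmat3*, *Sesn1* and *Phlda3* are above 0.70 under every setting.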

How the data were processed

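RNA of 1 vehicle and 1 IR-61 culture of RAW264.7 cells was hybridized to 1 Agilent single-color array each. The authors deposited spot intensities that the scanner software had corrected for background and spatial trends, beside flags for outlier, saturated and dim spots. The file headers name Agilent Feature Extraction 11.0.1.1 and the submitters' processing notes 11.0.0.1. A further deposited table holds log2 values, 1 per probe and array, scaled between the arrays by a method not given in the sources used here.

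From the 43020 spots per array that were not controls, those with an outlier flag were left out (124 with vehicle, 139 with IR-61), and none was saturated. The log2 intensities of a probe's spots were averaged, and each array's 75th percentile was then subtracted. Of 39419 probes, 27218 were named through unversioned RefSeq accessions of GRCm38.p6 (used for names, since the design file is on a different assembly). A gene took its brightest unsaturated probe. A probe not well above background on 1 array gives only a bound, set against the lowest signal well above background or, where higher, its own. The spread between spots came from probes with at least 5 usable spots, in 3 classes of log2 signal (under 6, 6 to 10 and above 10), with SDs of 0.347, 0.178 and 0.0703 for vehicle and 0.296, 0.144 and 0.0630 for IR-61. Precision is limited by the number of arrays.

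The members and lists were chosen with earlier results of these data known. Apart from the cell type markers, the genes named are the members, the highest and the lowest gene per list and every list gene past 2-fold. *Sesn2*, *Bax*, *Bbc3*, *Birc5*, *Ccnb1*, *Cdk1* and the markers *Col1a1*, *Col1a2*, *Cd14* and *Ms4a1* were added after their values were seen, as was the difference of *Adgre1*. No test between conditions was run. The steps were run on simulated arrays, both built from the vehicle array with noise between spots only. The planted changes were larger than the difference of any member. This run therefore says nothing about variation between cultures or about differences of the size reported. Software was limma 3.58.1 (R 4.3.3) for normexp, and matplotlib 3.10.9, pandas 2.3.3, numpy 2.4.6 and statsmodels 0.14.6 under Python 3.11.15.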

Additional observations from a re-analysis of the deposited data

How the results depend on the processing

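No paired analysis was possible because vehicle and IR-61 were each measured on a single array, without any test. List medians are given where they moved by more than the spot SD, and counts where they moved by over 1.5 times. Most changes came from leaving out the scaling, which raised the median of all genes to 0.59. The list medians then were 0.62 for p53 and its target genes, 0.46 for the targets of arrest, repair and metabolism, 0.32 for the targets of apoptosis, 0.56 for the regulators of p53, 0.65 for the relatives of the members, 0.65 for the partners of p21 and 0.90 for the genes repressed through p21. Those of the arrest and the apoptosis targets were negative with the scaling. Without it 3 members, 4 arrest targets, 4 regulators, 1 relative, 3 partners of p21 and 10 genes repressed through p21 were higher by 2-fold or more, and 0 arrest targets and 0 relatives were lower by as much. *Cdkn1a* passed the limit as the 1 lower member when the arrays were scaled by the median or by the 75th percentile over detected probes. The mean over detected probes moved the median of the members to 0.29, *Trp53inp1* to 0.29 and *Cdkn1a* to −0.24. Normexp moved *Cdkn1a* to −0.91 and *Ccng1* to 0.12, scaling by the median moved *Cdkn1a* to −1.06, and leaving out the scaling moved all 9 measured members by more than their spot SD, *Cdkn1a* to −0.49.

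With a 1.5-fold limit, 3 members were higher and 1 was lower, 3 arrest targets were higher, 2 apoptosis targets were lower, 3 regulators were higher and 1 was lower, 1 relative was higher and 2 were lower, and 3 partners of p21 and 8 genes repressed through p21 were higher. Quantile normalization, loess, the deposited log2 values, normexp background correction on the median signal (offset 50), outlier spots kept, no filter on dim probes and a signal of at least 50 on both arrays moved none of these counts by over 1.5 times and no list median by more than the spot SD. Over all genes, 336 were higher and 235 lower by 2-fold or more, against 257 and 279 with quantile normalization, 252 and 277 with loess, 266 and 281 in the deposited values, 124 and 150 with normexp, 921 and 440 without the filter on dim probes and 201 and 195 with the signal minimum. What limits every value is the single array per condition. *Eda2r* is limited by signal over background, and *Phlda3*, *Sesn1* and *Zmat3* by their single spots.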
